A study of Homo sapiens with 40 samples.

Results

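The comparison described here asks which genes respond differently to CASP8AP2 siRNA in U2OS and hTERT-RPE1 cells on day 2. U2OS cells come from a human osteosarcoma, and hTERT-RPE1 cells are untransformed retinal pigment epithelium immortalised by expression of telomerase. It rests on 12 of the 40 arrays of the series, 3 for each of 4 groups. These were hTERT-RPE1 cells with control siRNA, hTERT-RPE1 cells with CASP8AP2 siRNA, U2OS cells with control siRNA and U2OS cells with CASP8AP2 siRNA, all transfected with siRNA pools at 15 nM and harvested 2 days later. The lines were grown in different media, DMEM for U2OS and an F12:DMEM mixture for hTERT-RPE1, and the study's methods list hygromycin B in the hTERT-RPE1 medium, so line and medium cannot be told apart. Nothing in the labels says that the replicates came from separate cultures, and the p-values measure the spread between these arrays only.

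For each gene the log2 change in hTERT-RPE1 (siRNA minus control) was subtracted from the log2 change in U2OS. A positive value therefore means that the gene rose more, or fell less, in U2OS than in hTERT-RPE1, and a negative value means the opposite. This difference was tested for all 22069 Ensembl genes on the arrays, and 2073 of them (9.39%) were called at an adjusted p under 0.05, 1007 (4.56%) with a positive and 1066 (4.83%) with a negative difference. A paired gene symbol was at hand for 1924 genes, of which 266 (13.8%) were called, 122 positive and 144 negative. The lists described here hold only genes with a symbol, so 13.8% is the share against which their counts are read. The canonical histone genes, and CDKN1A, MDM2 and GDF15 among p53 targets, had no paired symbol and are not analysed here by name.

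CASP8AP2, also called FLASH, is needed for the transcription and processing of replication-dependent histone mRNAs. These are made in S phase, when new DNA has to be packaged as it is synthesised. Cells that cannot supply histones slow down or arrest in S phase. Factors that act in S phase and mitosis are made in step with the cell cycle.

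The depth of the knockdown itself differed between the lines. CASP8AP2 (ENSG00000118412) lay at 7.71, 7.30 and 7.66 on the control arrays of hTERT-RPE1 and at 6.84, 6.91 and 6.64 on the siRNA arrays, on the log2 scale used for all levels here. In U2OS it lay at 6.97, 6.99 and 7.02 with control siRNA and at 5.23, 5.20 and 5.34 with CASP8AP2 siRNA. All siRNA arrays were below all control arrays in each line, and the fall was larger in U2OS by 0.97 on the log2 scale (SE 0.13, limma adjusted p = 4.56e-05, difference -0.97). The part of this gap in the differences given for other genes was not tested. The transcripts of the other targeted histone regulators were not called, with a difference of -0.16 for NPAT (adjusted p = 0.271 in limma) and 0.18 for HINFP (adjusted p = 0.232).

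Replicate arrays of day 2 correlated with r between 0.9956 and 0.9977 across genes, and the median standard error of a difference was 0.12. The cell type labels could be checked with few genes. Of 16 markers of retinal pigment epithelium 3 had a symbol (BEST1, RLBP1 and TRPM1), and on average they lay between 3.93 and 4.22 in hTERT-RPE1 control cells, below the median gene (5.47), so the defining markers measured were not seen in that line. Of 14 osteoblast markers 4 had a symbol. IBSP (3.75) and SOST (4.91) were also below the median gene of U2OS control cells (5.63), while RUNX2 lay at 7.79 there and higher, at 9.61, in hTERT-RPE1. MSX2 lay at 7.40 in U2OS control cells and lower, at 5.35, in those of hTERT-RPE1. Among markers of other cell types (5 of 12 with a symbol) the levels lay between 3.15 and 4.75 in control cells of both lines. One of them, VWF, was called, with 3.77 in U2OS control cells and 4.48 after CASP8AP2 siRNA. The summed level of these 5 markers was 18.7 and 19.3 in hTERT-RPE1 (control and siRNA) and 19.2 and 20.0 in U2OS.

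To show the regulatory sequence in front of genes on which the results turn, the 250 bases before the start site are printed for 2 genes with a positive difference (DKK1 and ASNS) and 4 with a negative one that serve S phase, DNA repair or mitosis (KIF11, ECT2, NEIL3 and E2F2). They are RefSeq sequences of the build GRCh38.p14, 5′ to 3′ on the strand of the gene. Capitals mark the motifs searched on both strands, which were the TATA box TATAAA, the CCAAT box with those letters, the core TTTGAA of the cell-cycle homology region found in front of mitosis genes, the E2F sites TTTCCCGC, TTTGGCGC, TTTCGCGC and TTTGCCGC, and the amino acid response element TGATGNAA read by ATF4. None of these motifs is contained in another.
DKK1, chr10:52314031-52314280, plus strand: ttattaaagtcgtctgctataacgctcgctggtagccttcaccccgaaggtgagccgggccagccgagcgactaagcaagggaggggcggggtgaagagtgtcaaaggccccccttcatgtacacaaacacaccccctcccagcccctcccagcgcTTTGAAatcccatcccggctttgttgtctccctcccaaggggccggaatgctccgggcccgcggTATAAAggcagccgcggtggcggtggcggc
ASNS, chr7:97872409-97872658, minus strand: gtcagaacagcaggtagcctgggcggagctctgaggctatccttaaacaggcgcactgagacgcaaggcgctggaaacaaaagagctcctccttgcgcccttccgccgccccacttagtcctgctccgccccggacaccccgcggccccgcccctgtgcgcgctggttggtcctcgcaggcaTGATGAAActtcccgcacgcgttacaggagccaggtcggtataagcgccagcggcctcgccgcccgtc
KIF11, chr10:92592880-92593129, plus strand: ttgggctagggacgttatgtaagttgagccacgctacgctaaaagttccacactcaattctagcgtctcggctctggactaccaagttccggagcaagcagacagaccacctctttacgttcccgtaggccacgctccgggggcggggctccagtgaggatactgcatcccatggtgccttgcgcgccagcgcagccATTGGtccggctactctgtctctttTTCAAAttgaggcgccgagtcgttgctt
ECT2, chr3:172750476-172750725, plus strand: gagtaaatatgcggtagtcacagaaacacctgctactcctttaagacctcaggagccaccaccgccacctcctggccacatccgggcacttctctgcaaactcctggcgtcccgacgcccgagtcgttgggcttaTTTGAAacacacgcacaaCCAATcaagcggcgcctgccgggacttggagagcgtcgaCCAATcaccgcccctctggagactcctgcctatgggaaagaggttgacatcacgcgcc
NEIL3, chr4:177309624-177309873, plus strand: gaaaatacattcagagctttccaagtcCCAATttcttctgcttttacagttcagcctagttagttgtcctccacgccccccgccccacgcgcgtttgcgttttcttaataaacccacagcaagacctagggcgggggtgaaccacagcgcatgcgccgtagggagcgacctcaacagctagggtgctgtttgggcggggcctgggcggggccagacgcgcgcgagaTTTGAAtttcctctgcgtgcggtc
E2F2, chr1:23531234-23531483, minus strand: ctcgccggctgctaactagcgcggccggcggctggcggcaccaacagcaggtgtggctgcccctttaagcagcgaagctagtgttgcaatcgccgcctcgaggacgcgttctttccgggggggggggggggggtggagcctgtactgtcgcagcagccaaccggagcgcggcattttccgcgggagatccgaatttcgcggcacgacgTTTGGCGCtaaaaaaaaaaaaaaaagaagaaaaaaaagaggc
DKK1 holds a TATAAA 30 bases and a TTTGAA core 94 bases before its start, and ASNS, asparagine synthetase, holds an amino acid response element 68 bases before. KIF11, ECT2 and NEIL3 each hold the TTTGAA core too and at least 1 CCAAT, and E2F2 holds an E2F site 42 bases before the start. Promoters were matched for 212 of the 266 called genes with a symbol. The E2F sites were in 0 of 97 promoters of genes with a positive difference and in 8 of 115 (6.96%) with a negative one, against 4.13% of the 1503 genes with a symbol that were matched and 2.79% of all 35116 promoters in the table. The amino acid response element was in 6 of 97 (6.19%) and 1 of 115 (0.87%), against 1.93% and 3.14%. TTTGAA was in 14.4% and 15.7% (10.8% of matched genes and 13.3% of all promoters), CCAAT was in 27.8% and 33.9% (33.1% and 32.0%), and TATAAA was in 8.25% and 4.35% (7.85% and 10.7%). A match describes letters in this window only.

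Most of the genes that differed did so through U2OS. Of the 2073 genes, 1524 (73.5%) were called against control in U2OS only, while 156 were called in hTERT-RPE1 only. Another 258 moved the same way in both lines, 39 moved in opposite ways, and for 96 the change was called in neither line taken alone. The change was larger in U2OS for 1784 of them (86.1%), compared with 61.2% of all genes. The background of calls differed as well, since 24.9% of all genes were called in U2OS and 6.4% in hTERT-RPE1. Genes called only in hTERT-RPE1 leaned to a negative difference, 139 against 17, because most of them rose there without a call in U2OS, and their median change was 0.48 in hTERT-RPE1 and -0.02 in U2OS. Among genes with a symbol this group had 27 members, 26 of them with a negative difference. Under cyclic loess normalization 61.4% of the called genes had a positive difference in place of 48.6%, so the balance of directions over all genes depends on the scaling.

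**Figure D1:**
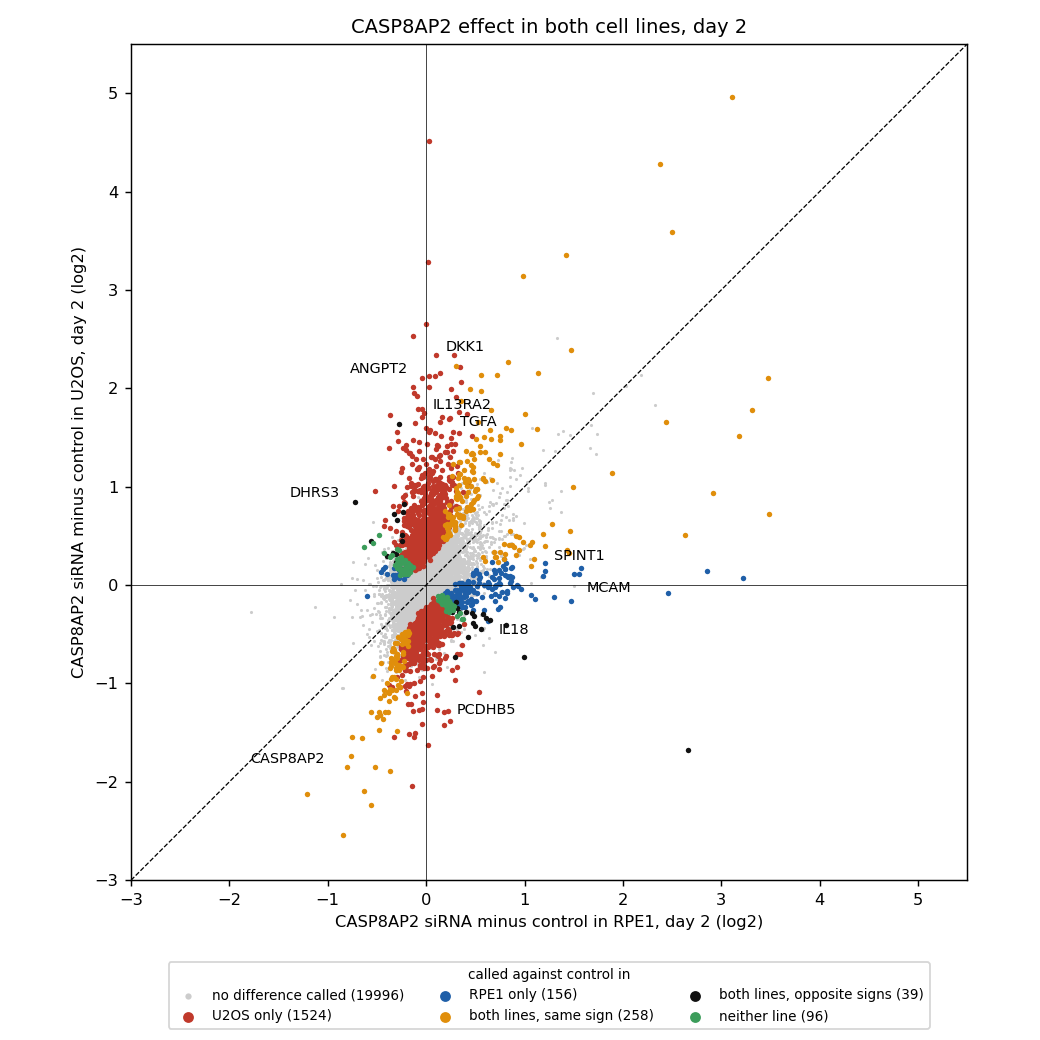
Change after CASP8AP2 siRNA in hTERT-RPE1 (x axis) and in U2OS (y axis) on day 2, both as log2 siRNA minus control over 3 arrays per group, with 1 point per Ensembl gene. Colours give the lines in which a gene with a called difference was also called against control, the dashed line marks equal change, and the 1524 points called in U2OS only form the vertical cloud while MCAM and SPINT1 lie along the horizontal axis.

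Several large negative differences came from rises in hTERT-RPE1. MCAM (ENSG00000076706) is a cell adhesion molecule of the immunoglobulin family. It lay at 5.54, 5.48 and 4.95 in hTERT-RPE1 controls and at 6.79, 6.73 and 7.14 after siRNA, and at 10.20, 10.20 and 10.16 and then 10.41, 10.22 and 10.26 in U2OS. All siRNA arrays were above the controls in both lines, but the change in U2OS (0.11) was not called, and the difference was -1.45 (SE 0.17, adjusted p = 7.17e-06 in limma). SPINT1, an inhibitor of membrane serine proteases such as matriptase, rose in hTERT-RPE1 from 4.62, 4.41 and 4.54 to 5.64, 5.38 and 6.16. In U2OS it stayed between 4.31 and 4.64 on all 6 arrays, with overlap between the groups, and the difference was -1.06 (SE 0.20). Among other genes with large negative differences, DHRS9, a retinol dehydrogenase (-0.94), and CD79A, a chain of the B cell receptor complex (-0.84), also rose in hTERT-RPE1 only. SPINT1, DHRS9 and CD79A were low, with control levels under 5 on every array of both lines.

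Other genes had negative differences because they fell in U2OS. PCDHB5 (ENSG00000113209), a clustered protocadherin, lay at 8.71, 8.60 and 8.66 in U2OS controls and at 7.68, 7.09 and 7.37 after CASP8AP2 siRNA. In hTERT-RPE1 it lay at 6.00, 5.69 and 5.85 and then at 6.01, 6.03 and 6.16. The groups did not overlap in either line, and the difference was -1.50 (SE 0.18, adjusted p = 7.02e-06 in limma). MRPS28, a protein of the small mitochondrial ribosomal subunit (-1.01), and EPB41L1, a protein that links the membrane to the cytoskeleton (-0.90), fell only in U2OS too. OSGEPL1, a mitochondrial tRNA modifying enzyme, fell in both lines, by 1.14 in U2OS and by 0.32 in hTERT-RPE1.

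The gene with the most negative difference of all 22069 was ENSG00000197409, which has no paired symbol. It lay at 6.87, 6.96 and 6.47 in hTERT-RPE1 controls and at 9.14, 9.40 and 9.76 after siRNA, and in U2OS at 12.63, 12.55 and 12.77 and then 10.96, 10.80 and 11.15. It rose in the line where it was low and fell in the line where it was high, so that the lines moved towards each other, and the difference was -4.35 (SE 0.21, limma adjusted p = 3.85e-11).

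**Figure D2:**
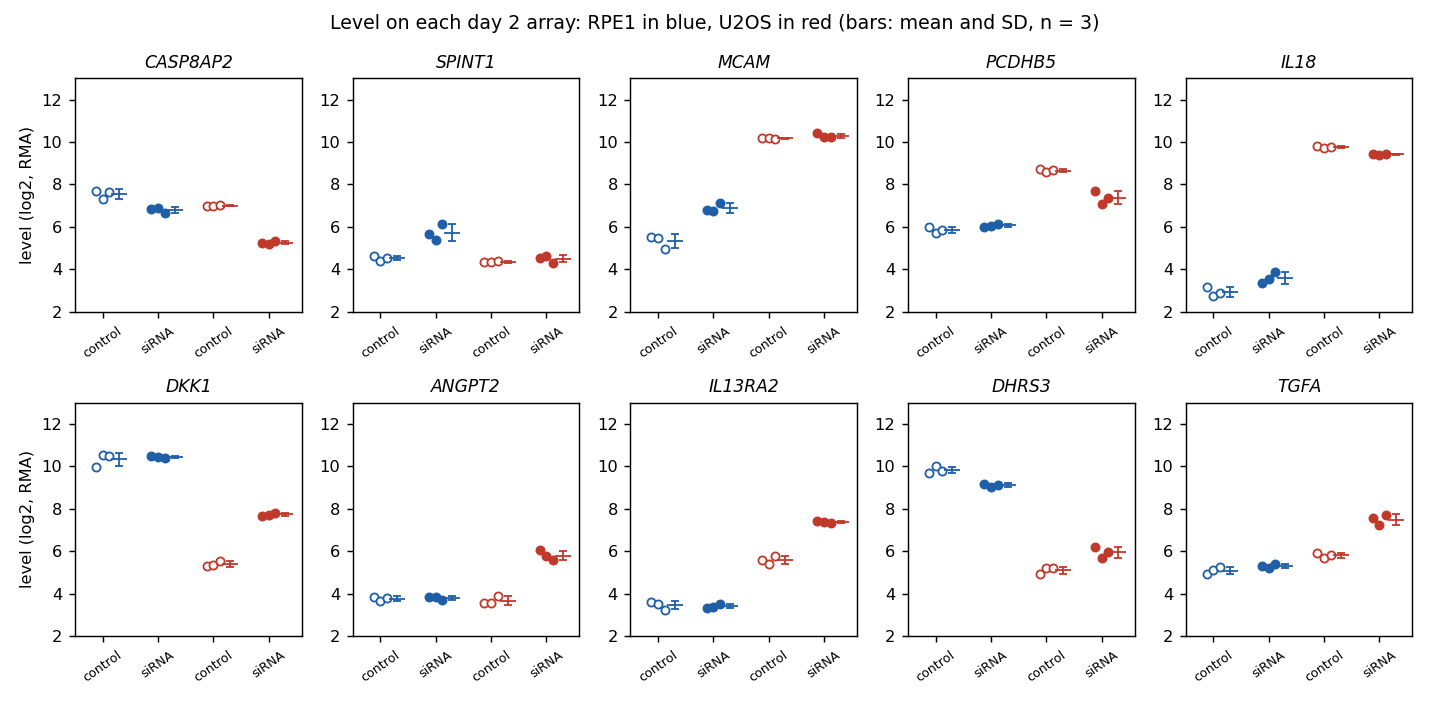
Level of 10 genes on each array of day 2 (y axis, log2 values from RMA), with control arrays as open and CASP8AP2 siRNA arrays as filled circles, hTERT-RPE1 in blue and U2OS in red, and the mean with its SD (n = 3) beside them. MCAM and SPINT1 move in hTERT-RPE1, PCDHB5, DKK1, ANGPT2, IL13RA2 and TGFA move in U2OS, and DHRS3 and IL18 move in opposite directions.

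Among genes with a symbol, the largest positive differences were those of 2 secreted signals, DKK1 and ANGPT2, that rose in U2OS. DKK1 (ENSG00000107984), a secreted inhibitor of Wnt signaling, lay at 5.30, 5.34 and 5.55 in U2OS controls and at 7.68, 7.72 and 7.81 after CASP8AP2 siRNA. In hTERT-RPE1 it lay at 9.98, 10.55 and 10.48 and then at 10.47, 10.44 and 10.40. The groups were far apart in U2OS and overlapped in hTERT-RPE1, which had the higher level throughout, and the difference was 2.24 (SE 0.16, adjusted p = 9.69e-09 in limma). ANGPT2, angiopoietin 2, a ligand of the endothelial receptor TIE2, rose in U2OS from 3.57, 3.55 and 3.91 to 6.04, 5.75 and 5.59. It stayed between 3.66 and 3.87 in hTERT-RPE1 and differed by 2.09 (SE 0.15, adjusted p = 1.02e-08 in limma).

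IL13RA2, a decoy receptor for interleukin 13, lay at 5.61, 5.41 and 5.78 in U2OS controls and at 7.42, 7.40 and 7.34 after siRNA. On the hTERT-RPE1 arrays it lay between 3.24 and 3.63 with overlap, and the difference was 1.83 (SE 0.17). TGFA, a ligand of the EGF receptor, rose in U2OS from 5.93, 5.68 and 5.81 to 7.55, 7.23 and 7.70. It lay at 4.91, 5.10 and 5.26 and then at 5.32, 5.22 and 5.41 in hTERT-RPE1, where the groups overlapped, and the difference was 1.46 (SE 0.16). The remaining genes among the 10 with the largest positive differences that rose in U2OS only were ZNF280A, a zinc finger gene (1.59), DLL4, a Notch ligand (1.31), IL1A, an inflammatory cytokine (1.29), NTF3, a neurotrophin (1.19), and ASNS (1.16). For all of these the siRNA arrays of U2OS were above the U2OS controls. ANGPT2 and DLL4 started near the bottom of the measured range, where arrays compress changes.

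The largest positive difference of all genes was that of ENSG00000144158, which has no paired symbol. It lay at 4.05, 3.71 and 3.89 in U2OS controls and at 8.42, 8.43 and 8.33 after CASP8AP2 siRNA, and between 3.85 and 4.09 on all arrays of hTERT-RPE1. The rise was seen in U2OS only, from a level near the bottom of the measured range. The difference was 4.48 (SE 0.15, limma adjusted p = 1.33e-13).

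In 5 genes with a symbol (1.88% of the called ones) the change was called in both lines with opposite signs. DHRS3, a retinal reductase that lowers the supply of retinoic acid, fell in hTERT-RPE1 from 9.69, 10.01 and 9.80 to 9.18, 9.01 and 9.13. In U2OS it rose from 4.92, 5.19 and 5.22 to 6.21, 5.69 and 5.96, and the difference was 1.56 (SE 0.19, adjusted p = 1.11e-05 in limma). IL18, a cytokine of the interleukin 1 family, did the reverse. It rose in hTERT-RPE1 from 3.19, 2.73 and 2.90 to 3.34, 3.56 and 3.87 and fell in U2OS from 9.83, 9.72 and 9.78 to 9.45, 9.40 and 9.42 (difference -1.0, SE 0.16). The IL18 levels in hTERT-RPE1 were near the bottom of the measured range. In both genes the line that was lower in control cells rose and the line that was higher fell, with no overlap between siRNA and control arrays. HECW2, a ubiquitin ligase, rose by 0.83 in U2OS and changed by -0.23 in hTERT-RPE1, SLC7A11, the cystine and glutamate exchanger, by 0.74 and -0.23, and MAP1A, a microtubule-associated protein, by -0.28 and 0.33.

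Whether such movement of the lines towards each other was general was examined with the control arrays of day 1, which do not enter the size of the day 2 difference. Control levels of the lines differed by at least 1 on day 1 in 506 of the 2073 called genes (24.4%) and in 2596 of all genes (11.8%). Among the 506 genes the day 2 difference ran against this gap in 267 (52.8%), compared with 49.9% of the 2596. In the 139 genes that were called only in hTERT-RPE1 and had a negative difference, 27 of 43 with such a gap (62.8%) started lower in hTERT-RPE1. Genes with a positive difference started from lower levels, with a day 1 median of 6.46 in U2OS controls, than genes with a negative one (8.27), and both lines were under 5 on day 1 in 25.1% and 6.57% of them. Over all genes that median was 5.59 and 40.4% were under 5 in both lines, so both sets started above the background.

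In the gene groups that follow, a value after a gene's name is its difference between the lines, and "only" refers to the calls against control within each line. Control and siRNA arrays of the other line could still lie apart without a call. Among genes of the cell cycle, every called difference in the lists of mitosis and of S phase was negative, but most members were not called. Of 31 genes of mitosis and cytokinesis, 11 were called with a negative and 0 with a positive difference, compared with 7.48% negative and 6.34% positive among genes with a symbol. The list ranged from -0.46 to 0.22, with 24 of the 31 under 0, and its median difference was -0.13, against -0.01 for genes with a symbol and 0.00 over all genes (-0.0005). In U2OS 21 of the 31 fell and 1 rose, and in hTERT-RPE1 12 fell and 1 rose (16.4% and 2.75% of the genes with a symbol fell in these lines). KIF11, the kinesin that separates the spindle poles, lay at 9.34, 9.32 and 9.34 in U2OS controls and at 8.79, 8.83 and 8.85 after siRNA, and at 10.09, 10.10 and 10.20 and then 9.92, 9.98 and 9.92 in hTERT-RPE1. It fell in both lines without overlap, and further in U2OS (difference -0.32, SE 0.07).

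ECT2, the exchange factor that activates RhoA at the cleavage furrow, fell in U2OS from 9.09, 9.05 and 9.10 to 8.59, 8.49 and 8.57 and overlapped between groups in hTERT-RPE1 (-0.45, SE 0.08, adjusted p = 0.00089 in limma). NUF2, a kinetochore protein, fell by 0.70 in U2OS and by 0.30 in hTERT-RPE1 (difference -0.40), and RAD21, a subunit of cohesin, fell by 0.52 in U2OS only (-0.38). The call of RAD21 was lost in the fit of the 12 arrays alone and that of KIF11 in the fit of all 40 arrays. The 11 called members became 5 in the fit of the 12 arrays alone and 6 after cyclic loess.

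Of 33 genes of S phase and DNA synthesis, 7 were called with a negative and 0 with a positive difference, with a median of -0.16 and a range from -0.53 to 0.20, and 28 of the 33 lay under 0. In U2OS 19 fell, while 3 fell in hTERT-RPE1. CCNE2, a cyclin that drives entry into S phase, fell in U2OS from 8.52, 8.51 and 8.49 to 7.96, 7.82 and 7.94, and lay at 9.37, 9.37 and 9.20 and then 9.18, 9.22 and 9.14 in hTERT-RPE1, where the groups overlapped. Its difference was -0.46 (SE 0.08). E2F2, a transcription factor for S phase genes (-0.53), and DNA2, a nuclease and helicase of replication (-0.41), also fell in U2OS only. In hTERT-RPE1 the siRNA arrays of both genes lay below the controls too. The changes there were -0.17 and -0.22 and were not called (adjusted p = 0.370 and 0.0543 in limma). DNA2 lost its call in the fit with a replicate block within line. E2F2 was not called without CASP8AP2 siRNA replicate 1 of hTERT-RPE1 or replicate 2 of U2OS (highest adjusted p = 0.0559 in limma). The 7 called members became 3 after centring on the median or cyclic loess and 11 when genes with a mean level under 5 were left out.

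For DNA repair and damage signaling the count was close to the background, with 3 negative and 1 positive call among 41 genes (9.76%), although 37 of the 41 lay under 0 (median -0.11). NEIL3, a DNA glycosylase made in dividing cells, had the largest difference of the list. It fell in U2OS from 7.91, 7.88 and 7.93 to 7.25, 7.01 and 7.20 and lay between 8.45 and 8.64 in hTERT-RPE1 with overlap (-0.76, SE 0.10, adjusted p = 2.44e-05 in limma). MLH3, a mismatch repair protein, fell in U2OS only (-0.48), and POLL, a DNA polymerase of end joining, rose there (difference 0.43).

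**Figure D3:**
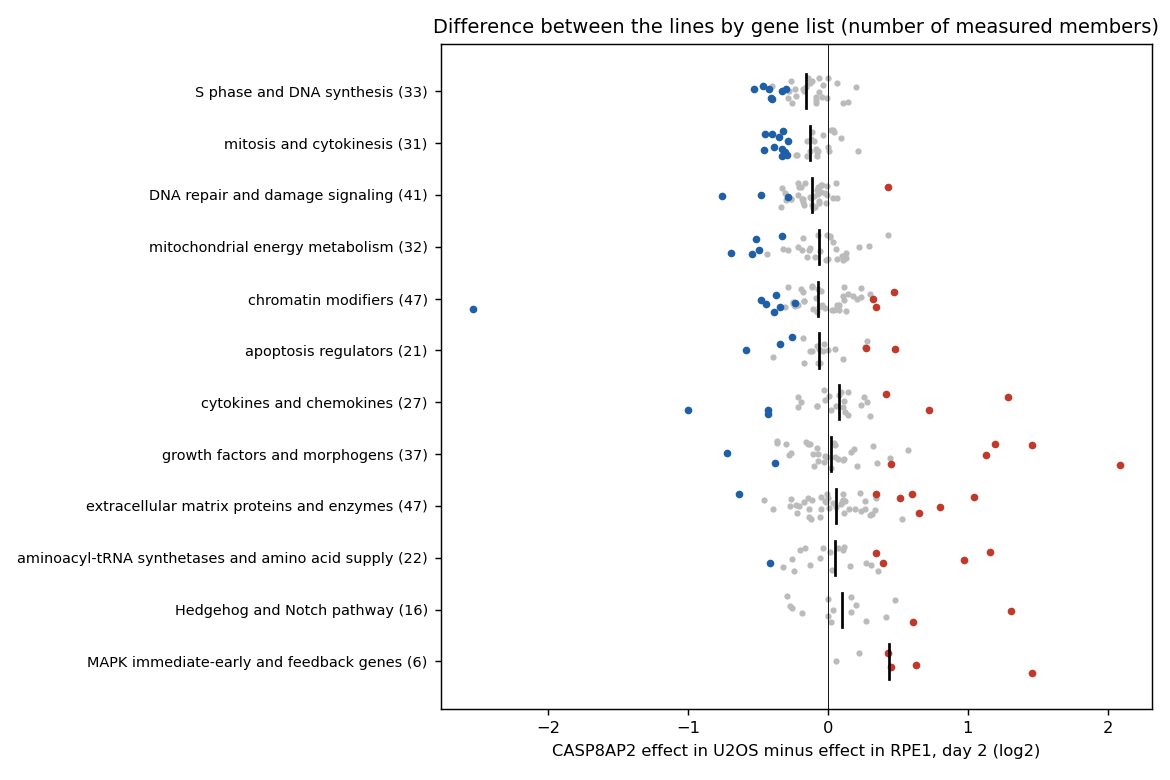
Difference between the lines on day 2 (x axis, log2 change in U2OS minus log2 change in hTERT-RPE1) for the members of 12 gene lists with a symbol, with 1 point per gene, red for called positive, blue for called negative and grey for not called. The black tick is the list median, which was -0.16 for S phase and DNA synthesis and 0.44 for the 6 immediate-early genes.

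Chromatin modifiers had 7 negative and 3 positive calls among 47 genes (21.3%). HDAC1 (-0.44) and RBBP7 (-0.34), which work together in deacetylase complexes, and HDAC7 (-0.48) fell in U2OS only. The 10 calls became 6 in the fit of the 12 arrays alone. Of 32 genes of mitochondrial energy metabolism 5 had a negative and 0 a positive difference (15.6%). TOMM22, a receptor for protein import, fell by 1.12 in U2OS and by 0.43 in hTERT-RPE1 (difference -0.69), and UQCRC2, a core subunit of complex III, fell in U2OS only (-0.54). The small GTPase RHOA fell in U2OS from 12.00, 12.09 and 12.10 to 11.33, 11.35 and 11.40, with a change of -0.11 in hTERT-RPE1, and the difference was -0.60 (SE 0.07). Its relative RHOB went the other way, with a rise of 1.17 in U2OS and of 0.39 in hTERT-RPE1.

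Signaling genes had the larger positive differences. Of 6 immediate-early and feedback genes of MAPK signaling, 4 were called positive and 0 negative, with a median of 0.44. They were TGFA, HBEGF, another EGF receptor ligand (0.45, SE 0.07), KLF10, an early response transcription factor (0.63, SE 0.08), and EGR2, a further one (0.43, SE 0.12). EGR2 lost its call in the fit of the 12 arrays alone and without control replicate 1 or CASP8AP2 siRNA replicate 1 of hTERT-RPE1, or control replicate 2 or CASP8AP2 siRNA replicate 1 or 2 of U2OS (highest adjusted p = 0.0839 in limma). HBEGF rose in both lines, by 0.78 in U2OS and by 0.33 in hTERT-RPE1, and the other 3 rose in U2OS only. Of 37 growth factors and morphogens 5 were positive and 2 negative (18.9%), with a list median of 0.02. BMP6, a bone morphogenetic protein, rose in U2OS only (1.13, SE 0.14). Of 11 genes of the Wnt and Notch pathways, 3 had a positive and 0 a negative difference (27.3%). Of 16 genes of the Hedgehog and Notch pathways, 2 were positive and 0 negative (12.5%, close to the background). Most members of both lists were not called. NKD1, an intracellular Wnt antagonist (0.91), and PTCH1, the Hedgehog receptor (0.61), rose in U2OS only, as did DKK1 and DLL4.

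Of 22 genes of amino acid supply and tRNA charging, 4 had a positive and 1 a negative difference (22.7%). ASNS lay at 8.04, 8.15 and 8.00 in U2OS controls and at 9.02, 9.03 and 9.14 after siRNA, and at 6.95, 6.91 and 6.74 and then 6.63, 6.81 and 6.69 in hTERT-RPE1, with overlap there (difference 1.16, SE 0.10, adjusted p = 2.39e-07 in limma). SLC7A11 lay at 9.73, 9.69 and 9.67 and then at 10.48, 10.47 and 10.36 in U2OS (difference 0.97, SE 0.09), and the glutamine transporter SLC1A5 rose in U2OS only (0.40). The amino acid transporter SLC7A8 had the negative difference (-0.41), since it rose by 0.91 in hTERT-RPE1 and by 0.50 in U2OS. It was not called without CASP8AP2 siRNA replicate 1 of hTERT-RPE1 or control replicate 3 of U2OS (highest adjusted p = 0.0554 in limma). The 5 calls became 8 when genes with a mean level under 5 were left out.

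In the extracellular matrix, 6 genes were positive and 1 negative among 47 (14.9%, close to the background). ADAMTS9, a proteoglycan-cleaving protease (1.04), and TGFBI, a matrix protein induced by TGF-beta (0.80), rose in U2OS only. LAMB3, a laminin chain, rose in both lines and more in hTERT-RPE1 (0.44 in U2OS and 1.08 in hTERT-RPE1, difference -0.64). PTGS2, the inducible cyclooxygenase, rose in U2OS only (0.86), as did RUNX2 (0.65) and MSX2 (0.82), which made 2 of the 4 osteoblast markers with a symbol. The other osteoblast markers were not called, with -0.17 for IBSP (adjusted p = 0.519 in limma) and 0.12 for SOST (adjusted p = 0.635).

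Among p53 targets and regulators of apoptosis, differences were called in both directions. Of 11 p53 targets, 7 rose and 1 fell in U2OS and 4 rose and 0 fell in hTERT-RPE1 (17.4% and 7.85% of the genes with a symbol rose in these lines), and the difference was called for 3 (27.3%), among them APAF1, a scaffold of the apoptosome (0.27), and PMAIP1 with a negative difference. APAF1 lost its call without any 1 of 11 arrays, all but control replicate 2 of hTERT-RPE1 (highest adjusted p = 0.136 in limma). PMAIP1 (NOXA), a BH3-only protein that promotes cell death, lay at 7.95, 8.25 and 8.12 in hTERT-RPE1 controls and at 8.99, 9.03 and 9.13 after siRNA, and at 10.06, 10.02 and 10.09 and then 10.42, 10.41 and 10.42 in U2OS. It rose in both lines, by 0.94 in hTERT-RPE1 and by 0.36 in U2OS (difference -0.59, SE 0.10). Of 21 regulators of apoptosis 5 were called (23.8%), 2 positive and 3 negative, and 1 was called in the fit of the 12 arrays alone.

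The arrays of days 1 and 3 do not enter the size of the day 2 difference and show the same contrast at other times. Those of day 1 were in the same fit, so the calls of days 1 and 2 share an estimate of the spread per gene. The difference was called for 152 genes on day 1 (0.689%) and 2107 on day 3 (9.55%). Of the 2073 genes of day 2, 1660 (80.1%) had the same sign on day 1 and 1808 (87.2%) on day 3. Both days were called for 115 genes with day 1, which is 5.55% of the day 2 genes and 75.7% of the day 1 genes, and all but 1 had the same sign. With day 3 the lists shared 706 genes, 34.1% of the day 2 and 33.5% of the day 3 genes, and 692 of them had the same sign. The day 3 count varied from 919 to 2755 when 1 array was left out, and it was 1041 in the fit of the compared arrays alone.

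The genes reached their difference at different times. DKK1 differed by 0.70 on day 1, 2.24 on day 2 and 2.17 on day 3, and its change from day 1 to day 2 was called (1.53, limma adjusted p = 0.00101), as for 281 genes in all (1.27%). ANGPT2 differed by 0.06 on day 1 and by 1.35 on day 3, and its change from day 1 to day 2 was the largest among the genes with a symbol described here (2.03, adjusted p = 2.73e-05 in limma). DLL4 and ZNF280A were likewise near 0 on day 1 (0.02 and 0.16) and differed by 1.66 and 1.62 on day 3. Among genes with a negative difference, SPINT1 and IL18 were near 0 on day 1 too (0.08 and -0.13). They differed by -1.31 and -1.26 on day 3. TGFA, IL1A and MRPS28 had differences on day 2 that were not called on day 3 (0.27, 0.18 and -0.17). DHRS3 differed most on day 3 (2.32). For KIF11, ECT2 and NUF2 the day 3 differences of -0.69, -0.87 and -0.66 were called, while those of day 1 were not.

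**Figure D4:**
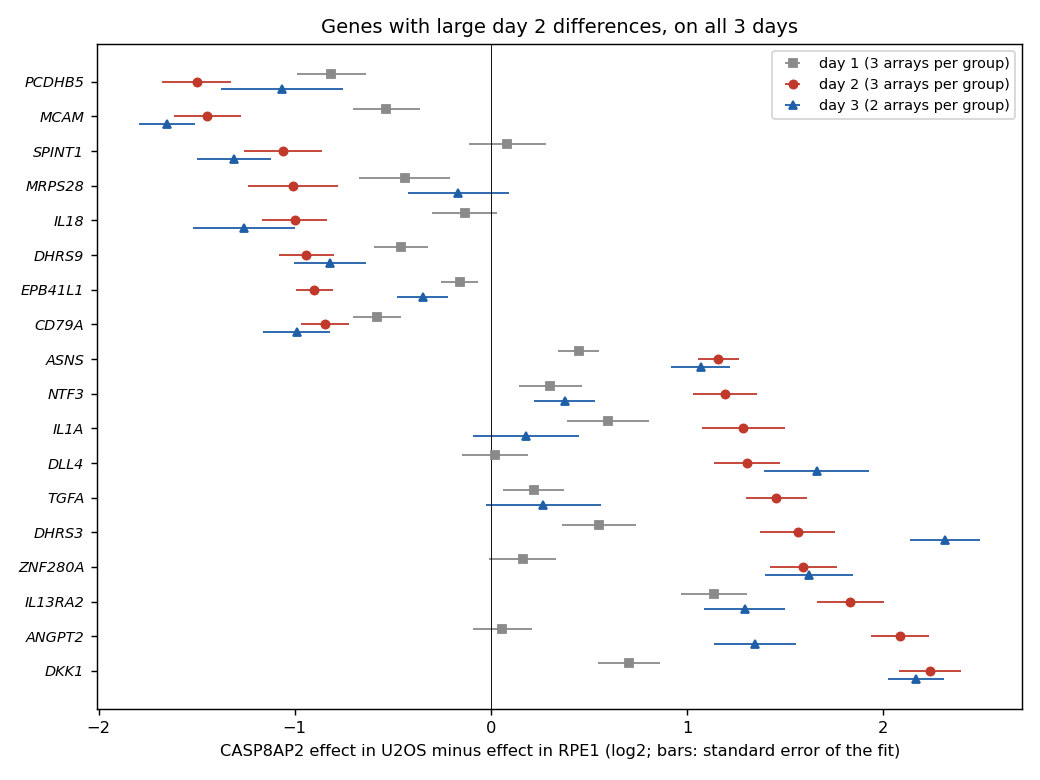
Difference between the lines (x axis, log2 change in U2OS minus log2 change in hTERT-RPE1) on days 1, 2 and 3 for 8 genes with large negative and 10 with the largest positive differences on day 2 among genes with a symbol, with the standard error of the fit. ANGPT2, DLL4, ZNF280A, SPINT1 and IL18 are among the genes that stand near 0 on day 1 only.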

How the data were processed

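Gene expression was measured on human WT arrays. The labels name RMA and the package affy for the steps the authors ran, with probes grouped by Ensembl gene, and the deposited values are log2 levels of 22069 genes on 40 arrays. The genome build is not given in the sources used here. RMA gives arrays a common distribution, so changes are relative to the other genes. Precision is set by the small number of arrays.

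The 24 arrays of days 1 and 2 were fitted with limma 3.58.1 under R 4.3.3, using 8 group means (16 residual degrees of freedom), and day 3, whose arrays have another mean level, was fitted alone (8). The difference between lines was an interaction term, tested two-sided. Benjamini-Hochberg adjustment ran over all genes, with calls at an adjusted p under 0.05. A size given without an adjusted p belongs to a called gene unless stated. In simulated data the fit found 92 of 100 genes with a difference of 1 and 53 of 100 with 0.5 among 22069, with 10 false calls.

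Symbols are those the authors paired with genes of their siRNA screen (1924 genes, 8.72%). The naming rule took the 10 largest differences each way, the 3 largest per class of response, up to 4 called members per list, CASP8AP2, NPAT, HINFP and the largest Ensembl gene each way, and not all are described. A few genes are not reported here. MAP1A was added after its values were seen. Members and lists were chosen with earlier results of these data known, and lists are described by counts and medians. Columns of the authors' own comparisons were not used. The alternatives were the compared arrays alone, all 40 arrays, median centring, cyclic loess, a mean level of at least 5, a trend in the spread, an absolute value of at least 1, replicate blocks and the omission of each array.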

Additional observations from a re-analysis of the deposited data

Results flagged for a closer look

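Listed here are responses that differed between lines or days by a test of the difference itself. Groups of 3 arrays were too small for a search for outlying samples. The effect differed between the lines on day 2 for 2073 genes, and the difference changed from day 1 to day 2 for 281 genes (1.27% of those tested), a comparison that shares its day 2 arrays with the former. In 5 genes with a symbol both lines were called with opposite signs. The differences were -1.0 for IL18, -0.61 for MAP1A (limma adjusted p = 0.00615), 0.97 for SLC7A11, 1.06 for HECW2 and 1.56 for DHRS3, and each was called under all 8 alternatives that refit the data and without each of the 12 arrays. The calls of MAP1A within each line were close to the threshold, with an adjusted p of 0.0425 in U2OS and 0.0436 in hTERT-RPE1 (limma). Those of IL18 had an adjusted p of 0.0304 in U2OS and 0.00106 in hTERT-RPE1 (limma), where its levels were near the bottom of the measured range.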

How the results depend on the processing

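The 2073 differences on day 2 ranged from 1521 to 2269 under the alternatives that refit the data and from 1698 to 2072 without 1 array, with 824 to 994 positive and 839 to 1125 negative ones. Of the 2073 genes, 1128 were called with the same sign under each alternative that tested them and without each of the 12 arrays, and of the 108 called genes in the set from which names were taken, 73 were. None of these named genes reversed. With an absolute value of at least 1, the day 2 counts were 207 (146 positive and 61 negative), 313 for U2OS against its control and 73 for hTERT-RPE1 against its control, with 24 for the difference on day 1, 434 on day 3 and 88 for the change from day 1 to day 2. In the fit of the compared arrays alone, the counts were 939 of 1413 for hTERT-RPE1, 70 of 152 for day 1 and 1041 of 2107 for day 3, and day 3 gave 3742 in the fit of all 40 arrays.

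Without 1 array the counts ranged from 4658 to 4808 for U2OS, from 874 to 1327 for hTERT-RPE1, from 84 to 150 for day 1, from 203 to 298 for the change from day 1 to day 2 and from 919 to 2755 for day 3. The lowest values came without CASP8AP2 siRNA replicate 3 of hTERT-RPE1 on day 2 (874) and on day 1 (84). Day 1 also gave 94 without CASP8AP2 siRNA replicate 1 and 101 without control replicate 3 of U2OS. Day 3 gave 919 without CASP8AP2 siRNA replicate 1 of U2OS, 1102 and 1118 without control replicates 1 and 2 of U2OS and 950 without CASP8AP2 siRNA replicate 2 of hTERT-RPE1, where the lone array is assumed to vary like the other groups.

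Same-numbered arrays did not deviate together (r between -0.10 and 0.06). This cannot show whether they shared a culture or a batch, which the labels do not state. With a replicate block within line the counts were 1521 for day 2, 55 for day 1 and 114 for the change from day 1 to day 2, and with a replicate block shared by both lines day 2 gave 1821. Under the block within line the lists of mitosis and cytokinesis and of S phase had 5 and 2 calls. The cause of these changes was not tested.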
